A study of Mus musculus with 4 samples.

Results

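The genes described here are 10 regulators and targets of the transcription factor p53, chosen by name: Trp53, Mdm2, Mdm4, Ccng1, Zmat3, Sesn1, Sesn2, Phlda3, Aen and Perp. Of these 10, 9 were measured through 23 probe sets that name one of them alone, among 18193 genes in all; Trp53, which encodes p53 itself, was not analysed here. The value given for a gene is the log2 intensity of its brightest probe set (highest mean over 4 arrays), and its other probe sets are described further on.

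RNA of LSK cells was hybridized to Affymetrix arrays. LSK cells are the lineage-negative, cKit-positive and Sca1-positive fraction of mouse bone marrow, in which blood stem cells and multipotent progenitors are found. The Ncstn KO group held 2 mice, a female (replicate 1) and a male (replicate 2), of genotype Ncstn flox/flox Mx1-cre+. The WT group held 2 littermates, a male (replicate 1) and a female (replicate 2), of genotype Ncstn flox/flox. All 4 mice were given polyIC, an inducer of interferon, in 3 injections of 20 µg per g of body weight from 14 days of age, and at 6 weeks of age, 4 weeks after the injections, the cells were sorted. Ncstn encodes nicastrin, a subunit of gamma-secretase, the protease that releases the active part of Notch receptors. Mx1-cre is a recombinase gene driven by an interferon-responsive promoter, which is not restricted to blood cells. Only the Ncstn KO mice carried it, so the loss of Ncstn and the presence of cre cannot be told apart. Each array came from 1 mouse, and the p-values set a difference between groups against the spread between mice within a group. In the comparison of the genotypes that spread includes the difference between a female and a male.

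p53 is kept low in unstressed cells by Mdm2, a ubiquitin ligase that marks it for degradation, and by Mdm4, which binds p53 and blocks its activity. DNA damage and other stresses stabilise p53, which then switches on genes for cell cycle arrest, DNA repair, metabolic control and cell death, Mdm2 among them, so that the response limits itself. In hematopoietic stem cells p53 is known for holding cells in quiescence and for removing damaged cells.

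The sequence p53 binds is built from pairs of a 10-base half-site, and promoter windows of 4 members held a match to one. Promoter windows of 300 bases, 250 before and 50 after each start, were available from RefSeq (GRCm38.p6) for 7 of the 9 measured genes, in 10 windows, but not for Zmat3 and Perp. The p53 half-site consensus was searched for without mismatches; its pattern reads the same on both strands, so each match counts once. It was found in 5 of these 10 windows, from 4 genes, against 8.36% of 32851 windows of that length over all genes. The matches were GAACTTGCCT in Mdm2, GGGCAAGCCT in Ccng1, AAGCTTGTTT in 1 of the Sesn1 windows and GGGCTTGTCC in both overlapping Aen windows. The windows of Mdm4, Sesn2 and Phlda3 held no match. A match is a description of these letters and does not show that p53 binds there. The 250 bases before the start are shown for Ccng1, the member with the smallest difference among the 4 arrays, and for Aen, whose Ncstn KO arrays both lay below the WT arrays, with the half-site in capitals. The Ccng1 sequence lies at chr11:40755287-40755536 on the minus strand and the Aen sequence at chr7:78895808-78896057 on the plus strand. The half-site spans bases 185 to 176 upstream of the Ccng1 start and bases 121 to 112 upstream of this Aen start.
Ccng1: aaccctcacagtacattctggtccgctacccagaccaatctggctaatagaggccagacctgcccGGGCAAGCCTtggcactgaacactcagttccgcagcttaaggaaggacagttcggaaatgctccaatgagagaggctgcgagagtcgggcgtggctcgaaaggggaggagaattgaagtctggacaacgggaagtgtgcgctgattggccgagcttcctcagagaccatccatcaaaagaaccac
Aen: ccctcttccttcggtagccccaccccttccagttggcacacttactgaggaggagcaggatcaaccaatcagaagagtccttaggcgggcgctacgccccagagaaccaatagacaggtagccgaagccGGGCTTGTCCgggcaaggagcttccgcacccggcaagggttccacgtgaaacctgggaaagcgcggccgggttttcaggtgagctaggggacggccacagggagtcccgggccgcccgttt

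The arrays had median intensities of 71.6 to 79.2. The targeted gene, Ncstn, had log2 intensities of 7.58 and 7.91 on the Ncstn KO arrays, against 9.05 and 8.98 on the WT arrays, in the order of the replicate numbers. Its change of -1.27 (SE 0.22, n = 2 per group) had a limma adjusted p of 0.257 over all genes, above the threshold of 0.05. The 6 measured LSK markers had mean levels of 10.46 to 12.79, and their changes ran from -0.044 for Kit to 0.83 for Slamf1. Slamf1 and Gata2 (0.31) had both Ncstn KO arrays above WT, as did 21.3% of all genes. Cd34 (-0.033) had both below WT, as did 12.8% of all genes. Ly6a, the Sca1 gene, was not analysed here. Markers of cells that the sort should remove were not all dim: the 12 measured neutrophil and monocyte markers summed to intensities of 52534 and 67665 in Ncstn KO, against 55547 and 44351 in WT. All 12 had a mean above WT in Ncstn KO, as did 55.8% of all genes, with a median change of 0.76. Of the 12, 6 had both Ncstn KO arrays above both WT arrays, against 21.3% of all genes. The changes of the 12 ran from 0.010 to 1.64, and the smallest turn sign under the scaling to the hybridization controls described below. The dimmest was Itgam at 4.05 to 5.77. The 4 measured erythroid markers summed to 311 and 595 in Ncstn KO, against 1195 and 680 in WT (median change -1.07), and median changes were 0.0065 for 5 B cell and -0.063 for 6 T and NK cell markers. The B cell markers did not move alike: Ms4a1, the gene of the antigen CD20, had 5.74 on both Ncstn KO arrays, against 7.79 and 7.94 on the WT arrays (change -2.12, SE 0.24), while the other 4 ran from -0.37 to 0.39. None of these markers passed over all genes. The hybridization controls, which are added to each sample at fixed amounts, were brighter in Ncstn KO, by 0.022 to 0.33 (log2) over 18 probe sets. Their mean was brighter by 0.20 (log2). Scaling to them lowers the change of each gene's main probe set by that amount, which turns the sign of Sesn1 and Bbc3 alone among the p53 pathway genes named; it lowers the female pair by 0.23 and the male pair by 0.16, and turns some of the small changes given below for single pairs and other probe sets. In these bulk samples fewer cells of a type and less RNA per cell cannot be told apart.

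The first comparison asked whether the p53 genes differed between Ncstn KO and WT LSK cells, and none of the 9 passed the test. The genes with the clearest separation were Perp, 1.53-fold higher on average, and Aen, 1.41-fold lower on average. The limma fit with genotype as the only term called 0 of 9 members and 0 of 18193 genes at an adjusted p under 0.05 (0% called). At an unadjusted p under 0.05 it held 0 of 9 members and 1237 genes, or 6.80% of all genes. The Ncstn KO and WT arrays did not overlap for 2 of 9 members, against 34.0% of all genes, so the members separated the genotypes no more often than genes in general. Perp was the 1 member wholly above WT, as were 21.3% of all genes, and Aen the 1 wholly below, as were 12.8%. The smallest two-sided p that an exact permutation test can reach for 1 gene with 2 arrays per group is 0.333.

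**Figure D1:**
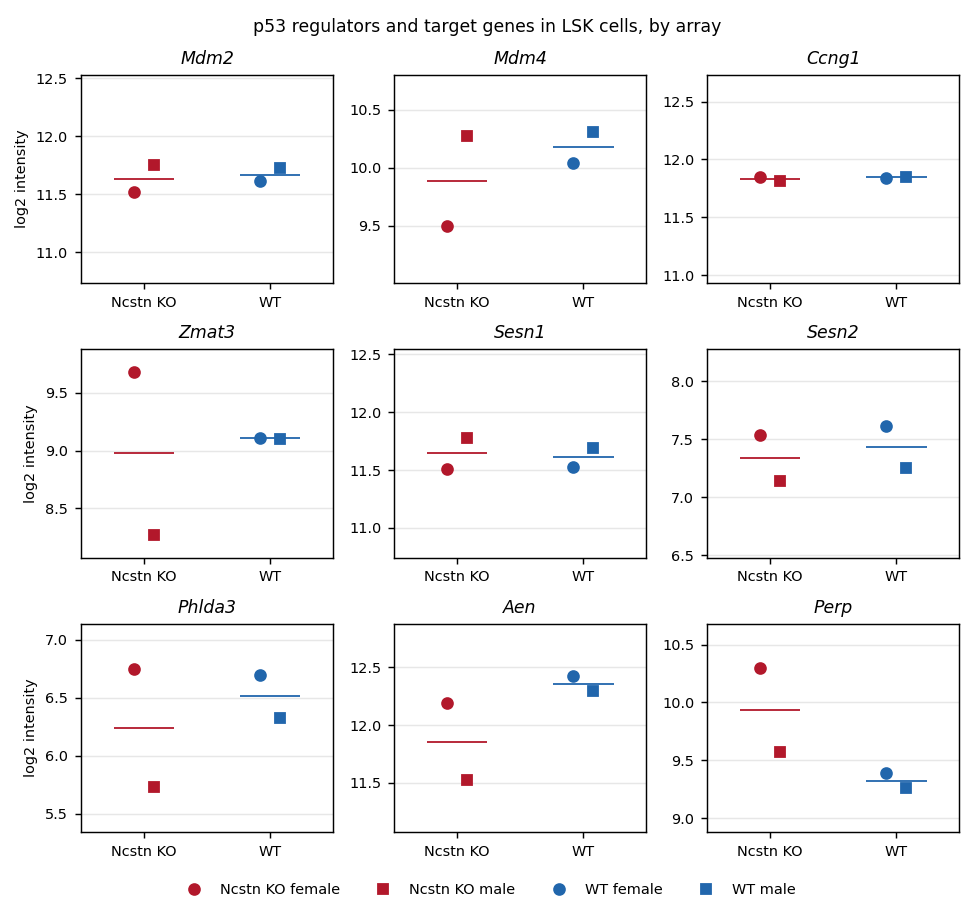
Log2 intensity of each of the 9 measured genes on every array, Ncstn KO (red) left of WT (blue), with circles for females, squares for males and a line at each group mean. All panels span the same range on the log2 axis. Only Perp and Aen show no overlap of the groups, and the Ncstn KO arrays of Zmat3 lie on either side of a WT pair that coincides.

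Among the direct regulators of p53, Mdm2 was steady over the arrays. Its log2 intensities were 11.52 and 11.75 in the female and male Ncstn KO mice, against 11.61 and 11.73 in the female and male WT mice. The groups overlapped, with a change of -0.036 (SE 0.12, n = 2 per group) and a 95% interval of -0.32 to 0.25 (limma adjusted p = 0.998). Mdm4 had 9.50 and 10.27 in the female and male Ncstn KO mice, against 10.04 and 10.31 in the female and male WT mice. The female Ncstn KO array was the low one, while the other 3 lay within 0.27 of each other. The change was -0.29 (SE 0.27), with an interval of -0.96 to 0.37 (limma adjusted p = 0.959), and it was 0.093 without Ncstn KO replicate 1.

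Ccng1 and Zmat3, targets that act on p53 itself and on RNA, stood at opposite ends for spread. Ccng1 encodes cyclin G1, which brings a phosphatase to Mdm2. Its log2 intensities were 11.85 and 11.82 in the female and male Ncstn KO mice, against 11.84 and 11.85 in the female and male WT mice. All 4 arrays thus lay within 0.04 of each other, and the change of -0.011 (SE 0.086) had an interval of -0.22 to 0.20 (limma adjusted p = 0.9996). Zmat3 encodes an RNA-binding zinc finger protein. It had 9.68 and 8.27 in the female and male Ncstn KO mice, against 9.11 and 9.10 in the female and male WT mice. The female Ncstn KO array was the highest and the male the lowest, a 2.67-fold difference, while the WT arrays differed by 1.01-fold. The mean change was therefore small, -0.13 (SE 0.44, limma adjusted p = 0.998), with a wide interval of -1.21 to 0.94. Without Ncstn KO replicate 2 it was 0.58, and without Ncstn KO replicate 1 it was -0.84.

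The sestrins, stress proteins that restrain the growth-promoting kinase complex mTORC1, overlapped between the groups in their main probe sets. Sesn1 had 11.51 and 11.78 in the female and male Ncstn KO mice, against 11.53 and 11.69 in the female and male WT mice. Its change was 0.033 (SE 0.13), with an interval of -0.28 to 0.34 (limma adjusted p = 0.9996). Both females lay below both males. Sesn2, which also senses leucine, had 7.53 and 7.14 in the female and male Ncstn KO mice, against 7.62 and 7.25 in the female and male WT mice. Here both females lay above both males, the opposite of Sesn1. Its change between the genotypes was -0.096 (SE 0.27), with an interval of -0.76 to 0.56 (limma adjusted p = 0.995).

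The members tied to cell death and survival signalling held the largest changes, in both directions. Aen encodes an exonuclease that takes part in breaking down DNA during apoptosis. Its log2 intensities were 12.19 and 11.52 in the female and male Ncstn KO mice, against 12.42 and 12.29 in the female and male WT mice. Both Ncstn KO arrays lay below both WT arrays, the female by a margin of 0.10. The change of -0.50 (SE 0.21, n = 2 per group) had an interval of -1.01 to 0.010 and did not pass (limma adjusted p = 0.758). The male pair held most of this difference, and the change was -0.17 without Ncstn KO replicate 2 and -0.83 without Ncstn KO replicate 1. Perp encodes a membrane protein of desmosomes that promotes apoptosis. It had 10.30 and 9.57 in the female and male Ncstn KO mice, against 9.39 and 9.26 in the female and male WT mice. Both Ncstn KO arrays lay above both WT arrays. The change of 0.61 (SE 0.26) had an interval of -0.022 to 1.25 and did not pass (limma adjusted p = 0.768). It was 0.98 without Ncstn KO replicate 2 and 0.25 without Ncstn KO replicate 1. Phlda3 encodes a small protein that competes with the survival kinase Akt for membrane lipids. It was dim, with 6.75 and 5.73 in the female and male Ncstn KO mice, against 6.70 and 6.32 in the female and male WT mice. The male Ncstn KO array was the low one and the groups overlapped, with a change of -0.27 (SE 0.39) and an interval of -1.23 to 0.68 (limma adjusted p = 0.978). Without Ncstn KO replicate 2 its change was 0.24. All 12 measured neutrophil and monocyte markers had a mean above WT in Ncstn KO, as given above. For 6 of the 12 both Ncstn KO arrays lay above both WT arrays, against 21.3% of all genes. Their part in the values of Aen and Perp was not tested.

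**Figure D2:**
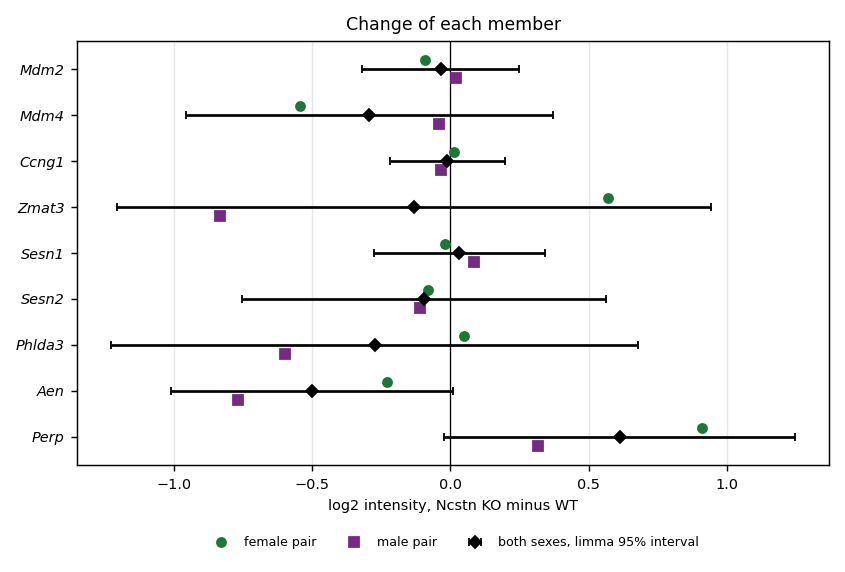
Difference in log2 intensity, Ncstn KO minus WT, for each of the 9 genes: diamonds with bars give the limma estimate from 2 arrays per group with its 95% interval, circles the female pair and squares the male pair. Every interval includes 0, and the pairs of Zmat3 lie on opposite sides of it, at 0.57 in females and -0.84 in males.

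Over the 9 members 2 lay above and 7 below WT in Ncstn KO, whereas 55.8% of all genes lay above. The members' median change was -0.096, against 0.025 over all genes. The members' median was 0.0077 without Ncstn KO replicate 2, the male, so that without this array it no longer lay below 0. It still lay below the median over all genes, which was 0.074 without this array.

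The arrays of a genotype differed more between the Ncstn KO mice than between the WT mice. The difference between the replicates was larger in Ncstn KO for 9 of 9 members, against 63.0% of all genes and 61.4% of those above the median level. The count was 7 of 9 after centring on the array median and after scaling to the hybridization controls. It was also 7 of 9 with all probe sets of a gene averaged. The shares over all genes were not counted under these alternatives, so these counts have no share to stand against. The median difference between replicates was 0.67 for the members in Ncstn KO and 0.13 in WT, against 0.23 and 0.15 over all genes. No test of this spread was made, and the replicates of each group also differ in sex. Zmat3 differed by 2.67-fold between the Ncstn KO arrays, Phlda3 by 2.03-fold, Mdm4 by 1.71-fold, Perp by 1.65-fold and Aen by 1.59-fold. In WT the same genes differed by 1.01-fold, 1.30-fold, 1.21-fold, 1.10-fold and 1.09-fold, in the same order. Ccng1, at 1.03-fold in Ncstn KO and 1.005-fold in WT, had the smallest difference of the members in both groups. Over all genes Pearson's r was 0.989 between the Ncstn KO arrays and 0.995 between the WT arrays, a correlation across genes, which are not independent replicates.

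**Figure D3:**
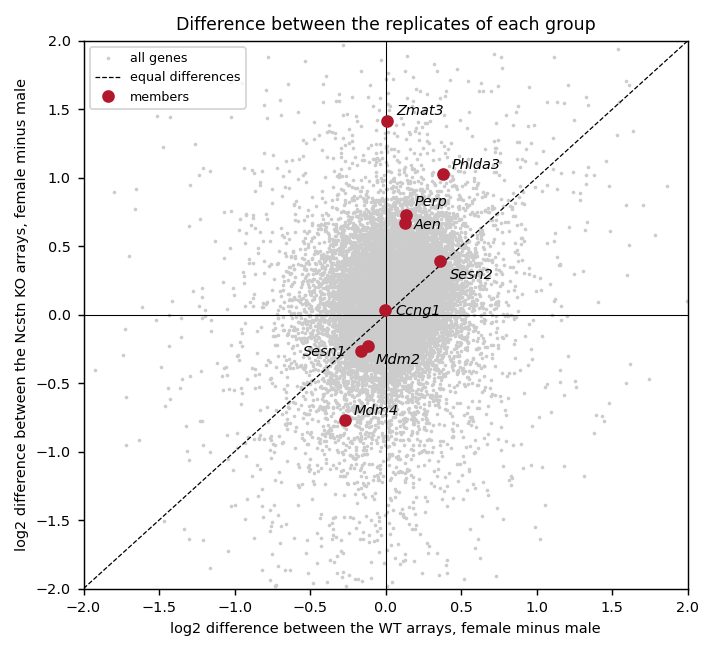
Log2 difference between the 2 arrays of a group, female minus male, in Ncstn KO (vertical axis) against WT (horizontal axis), for the 9 members (red) over all genes (grey, 101 of them outside the axes). Points farther from 0 vertically than horizontally differed more between the Ncstn KO mice; Zmat3 has 1.42 in Ncstn KO and 0.0085 in WT.

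The same values were read by sex, with 2 females and 2 males balanced over genotype. For 8 of 9 members the female lay on the same side of the male in both genotypes, the exception being Ccng1. The share of all genes that did so was not counted. Zmat3, Phlda3, Sesn2, Aen and Perp were higher in the female of each genotype, and Mdm2, Mdm4 and Sesn1 were lower. In a limma fit with genotype and sex, 0 of 9 members passed (adjusted p of 0.574 to 0.953), and 4 of 18193 genes did (0.0220% called). At an unadjusted p under 0.05 the fit held 3 members, Mdm4, Aen and Sesn1, and 1561 genes, or 8.58% of all genes. The females did not overlap the males for 6 of 9 members, against 40.5% of all genes. Of these 6, Zmat3, Sesn2 and Phlda3 were higher in females, against 29.0% of all genes, and Mdm2, Mdm4 and Sesn1 were lower, against 11.5% of all genes. The differences, female minus male, were 0.71 (SE 0.37) for Zmat3, 0.70 (SE 0.27) for Phlda3, -0.52 (SE 0.17) for Mdm4 and -0.21 (SE 0.080) for Sesn1. Most of the Zmat3 value came from the Ncstn KO pair, since the WT female and male were 9.11 and 9.10. Of the 12 neutrophil and monocyte markers 9 were lower in females, as were 6699 of 18193 genes. The markers' median was -0.26, against 0.068 over all genes, and 0 of the 12 passed in this fit. Their part in the members' values was not tested. Whether the change between the genotypes differs by sex cannot be tested with 1 mouse of each kind.

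The other probe sets of a gene were read on the same 4 arrays and are no further replicates. Of the 23 probe sets 0 passed in a fit over 45037 probe sets. How many of all these probe sets passed was not counted, and in the fit over genes 0 of 18193 passed. The difference between replicates was larger in Ncstn KO for 22 of the 23, the exception being a probe set of Mdm2 near the bottom of the scale. The share over all probe sets was not counted, and over all genes it was 63.0%. Some of the 22 were near ties, as the second brightest Mdm4 probe set (female minus male -0.34953 in Ncstn KO and -0.34915 in WT). With the probe sets of each gene averaged, 7 of 9 members had the larger difference in Ncstn KO, and the share over all genes was not counted. All 4 Aen probe sets had the Ncstn KO female above the Ncstn KO male, by 0.67 to 1.13. Their changes between the genotypes ran from -0.86 to -0.037, so the probe sets agreed in sign but not in size. All 4 Sesn1 probe sets had the Ncstn KO female below the Ncstn KO male, by 0.27 at the least and by 1.55 for the dimmest, which had 7.14 and 8.69 in these mice, against 7.99 and 8.36 in the WT female and male. For Mdm2 the second probe set, at a mean of 7.90, had 7.47 and 8.02 in the Ncstn KO female and male, against 8.06 in both WT mice. Both Ncstn KO arrays were thus below WT there (change -0.32), which the main probe set did not show. Of the 4 Mdm4 probe sets the second brightest changed by -0.17, near the -0.29 of the main one, while those at means of 4.56 and 3.22 lay near the bottom of the scale, with changes of 0.0024 and 0.37. The 3 Ccng1 probe sets changed by -0.011 to 0.085 and the Sesn2 pair by -0.096 and 0.17. The second Sesn2 probe set had 7.44 and 7.33 in the Ncstn KO female and male, against 7.26 and 7.18 in the WT female and male, so that both Ncstn KO arrays were above WT there. Zmat3, Phlda3 and Perp rest on 1 probe set each.

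**Figure D4:**
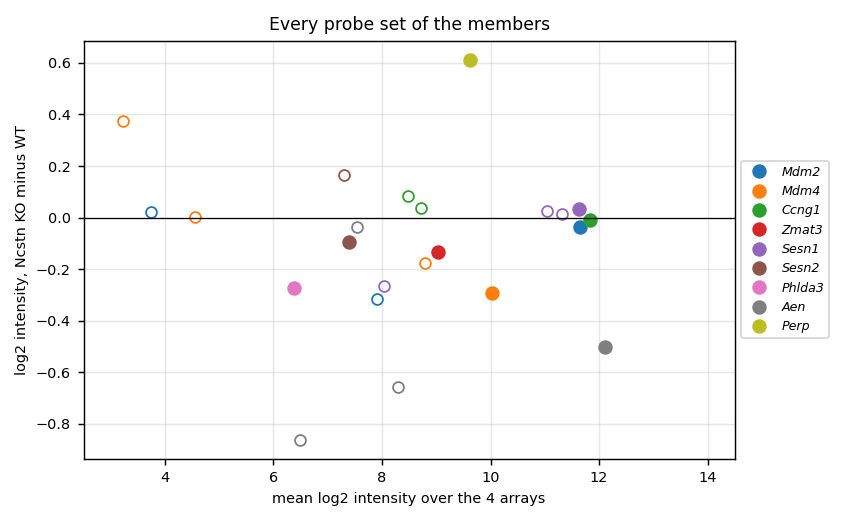
Difference in log2 intensity, Ncstn KO minus WT, of each of the 23 probe sets against its mean over the 4 arrays; filled points are the probe sets used as the gene's value and open points the others. The Aen probe sets all lie below 0, and the probe sets of Ccng1 lie within 0.085 of it.

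Other target genes of p53 were tested gene by gene, and a pattern common to the list was not tested. Of 29 measured genes 0 passed over all genes and 4 had an unadjusted p under 0.05 (6.80% of all genes did). In Ncstn KO 20 lay above WT (55.8% of all genes did) and 9 below. The median change was 0.19, against 0.025 over all genes. Scaled to the hybridization controls this median was -0.0051 and that of all genes -0.17. The groups did not overlap for 13 of 29 (44.8%, against 34.0% of all genes), 10 higher (21.3% of all genes) and 3 lower (12.8% of all genes). Ddit4, an inhibitor of mTORC1 also induced by glucocorticoids and low oxygen, had 12.81 and 12.79 in the Ncstn KO female and male, against 12.39 and 12.23 in the WT female and male. Its change of 0.49 (SE 0.083) had a limma adjusted p of 0.257. Pmaip1, which encodes the cell death protein Noxa, had 9.79 and 8.53 in the Ncstn KO female and male, against 8.51 and 7.55 in the WT female and male. Its groups were separated by only 0.024, and its change was 1.13 (SE 0.49, limma adjusted p = 0.771). Cdkn1a, the p53 target that encodes the cell cycle inhibitor p21, had 10.55 and 11.06 in the Ncstn KO female and male, against 11.12 and 10.05 in the WT female and male. Its groups overlapped, with opposite signs in the female (-0.57) and male (1.01) pairs. The changes were 0.96 for Ephx1, an epoxide hydrolase, 0.74 for Dram1, a lysosomal protein of autophagy, 0.30 for Gadd45a, a DNA damage response protein, and 0.16 for Bbc3, which encodes the cell death protein Puma. Plk2, a stress-induced polo-like kinase, had 9.10 and 10.46 in the Ncstn KO female and male, against 11.07 and 10.80 in the WT female and male. It had the lowest change of these targets, -1.15 (SE 0.42, limma adjusted p = 0.672).

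Genes that act upstream of p53 were divided, and 0 of 20 measured passed over all genes. Of these 9 lay above WT in Ncstn KO (55.8% of all genes did) and 11 below, with a median change of -0.0079. An unadjusted p under 0.05 was held by 2 (6.80% of all genes did). The groups did not overlap for 10 of 20, against 34.0% of all genes, with 5 higher (21.3% of all genes) and 5 lower (12.8% of all genes). The smallest unadjusted p-values were those of the DNA damage kinase genes Atm and Chek1. Atm, whose product phosphorylates p53 after double-strand breaks, had 10.79 and 10.47 in the Ncstn KO female and male, against 11.14 and 11.39 in the WT female and male. Its change was -0.64 (SE 0.16, limma adjusted p = 0.471). Chek1, a replication checkpoint kinase, had 11.30 and 10.75 in the Ncstn KO female and male, against 11.58 and 11.46 in the WT female and male (change -0.49, SE 0.19, limma adjusted p = 0.700). Both Ncstn KO arrays lay below both WT arrays for each of these kinases. Atr, the kinase that responds to stalled replication, changed by -0.33 and Trp53bp1, a repair protein at DNA breaks, by -0.19, while Kat5, an acetyltransferase of p53, changed by 0.34. Cdkn2a, whose Arf product inhibits Mdm2, was near the bottom of the scale on every array, at 3.88 and 3.81 in the Ncstn KO female and male, against 4.10 and 3.81 in the WT female and male.

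**Figure D5:**
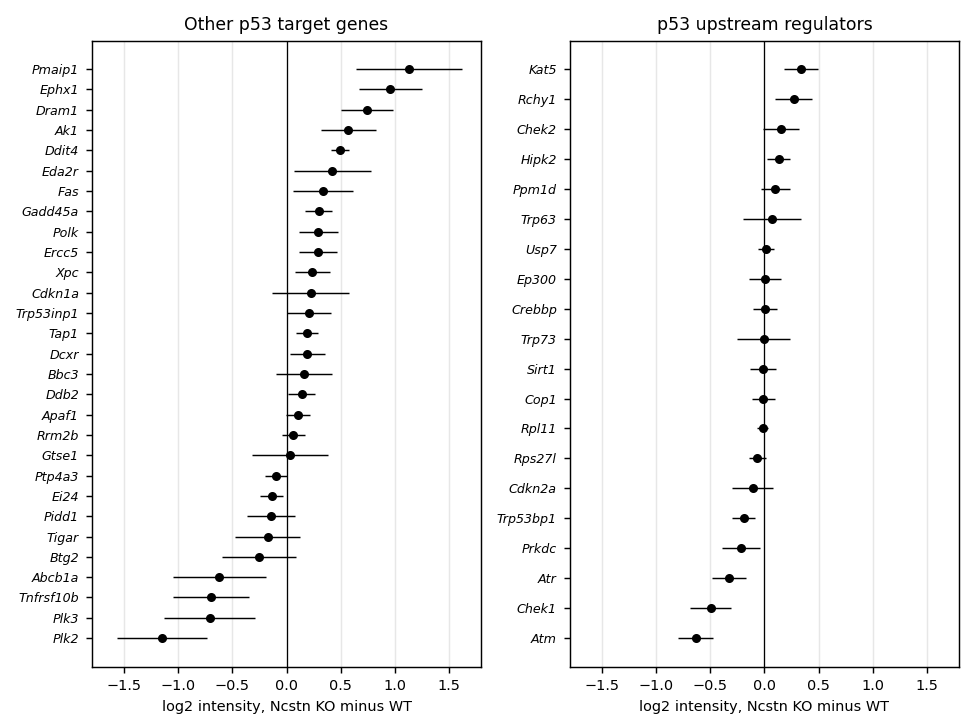
Difference in log2 intensity, Ncstn KO minus WT, with the SE of the limma fit (2 arrays per group), for 29 other p53 target genes and 20 upstream regulators, each ordered by size. The targets run from -1.15 for Plk2 to 1.13 for Pmaip1 and the regulators from -0.64 for Atm to 0.34 for Kat5.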

How the data were processed

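Total RNA (5 ng per sample, per the labels' protocols) was amplified and biotin-labelled before hybridization. The authors deposited 1 intensity per probe set, on a linear scale, made with RMA per the submitters' processing notes; neither program nor background model is named in the labels. They ran from 3.32 to 23642.56, so log2 was taken with no offset and no further scaling was made. Signal over background was not assessed, and precision is limited by having 2 arrays per group.

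Of 45101 probe sets 64 controls were left out. GEO's platform annotation gave 34945 of the rest 1 gene, 932 several and 9160 none; 34741 matched the RefSeq gene table (GRCm38.p6), with 0 symbols changed. Each of 18193 genes was represented by its brightest probe set. Tests used limma 3.58.1 in R 4.3.3 (lmFit, then eBayes with the prior variance following the mean level; two-sided p, Benjamini-Hochberg adjustment over all genes), checked on simulated data; figures used matplotlib 3.10.9. Named genes were the measured members, Ncstn, up to 5 genes of each other list by smallest unadjusted p, and Cdkn1a, Bbc3, Pmaip1 and Cdkn2a by name. Itgam is the dimmest of its marker list, and Kit, Slamf1, Gata2, Cd34 and Ms4a1 were named after their values were seen. The members and lists were chosen with earlier results of these data known. Some listed genes were not analysed here.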

Additional observations from a re-analysis of the deposited data

Results flagged for a closer look

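For 6 of the named genes the change between Ncstn KO and WT had opposite signs in the female and the male pair. The differences between the pairs, female minus male change on the log2 scale, were -1.58 for Cdkn1a (-0.57 in females and 1.01 in males), 1.41 for Zmat3 (0.57 and -0.84), 0.65 for Phlda3 (0.049 and -0.60), -0.11 for Mdm2 (-0.092 and 0.020), -0.10 for Sesn1 (-0.019 and 0.084) and 0.044 for Ccng1 (0.011 and -0.033). Scaled to the hybridization controls, an alternative added after seeing the data, 2 of the 6 kept opposite signs: Cdkn1a (-0.80 and 0.85) and Zmat3 (0.34 and -0.999). Each pair holds 1 mouse per genotype, so these differences were not tested. Groups of 2 arrays were too small to look for single arrays far from the rest.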

How the results depend on the processing

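In the alternatives run, 0 members passed; 9 were tested, except that the filter on genes above the median level kept 7. In the alternatives that keep single probe sets, 0 of 23 passed, and the number passing over all probe sets was not counted. The number of genes passing between Ncstn KO and WT, 0 as reported, was 3 after quantile normalization, 62 after centring each array on its median, 2 among genes above the median level, and 0 to 27 when 1 array was left out (23 without Ncstn KO replicate 1 and 27 without Ncstn KO replicate 2). Between females and males, where 4 passed, it was 6 after quantile normalization, 58 after median centring, 6 after scaling to the hybridization controls, 2 among genes above the median level and 0 without a variance trend. The cause was not tested. The members' median of -0.096 was -0.29 under the hybridization control scaling, where that of all genes was -0.17. With 1 array left out it ran from -0.14 to 0.0077, and that of all genes from -0.024 to 0.074.

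Of 115 alternative values of member changes 101 kept their sign and 14 turned it. With all probe sets averaged, Ccng1 had 0.037, Sesn1 -0.049 and Sesn2 0.035, and scaled to the hybridization controls Sesn1 had -0.16. With 1 array left out the changes ran from -0.83 to -0.17 for Aen, 0.25 to 0.98 for Perp, -0.84 to 0.58 for Zmat3, -0.79 to 0.24 for Phlda3, -0.68 to 0.093 for Mdm4, -0.15 to 0.079 for Mdm2, -0.10 to 0.17 for Sesn1, -0.29 to 0.10 for Sesn2 and -0.030 to 0.0077 for Ccng1. Leaving out 1 array leaves a genotype with a single sex. The smallest adjusted p over all alternatives was 0.0793, for Aen without Ncstn KO replicate 1. The replicate numbers are not stated to pair the mice, and deviations of same-numbered arrays correlated at -0.24 across genes; with the replicate number as a block 0 genes passed, and with the crossed pairing, chosen after seeing the data and the same as a term for sex, 0 passed.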
